A study of Homo sapiens with 6 samples.

Results

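RIG-I-like sensors and interferon-stimulated genes were followed in Huh7 cells, a human hepatocellular carcinoma line, as 9 of the 50868 genes in the deposited table. The genes were chosen by name: the sensors DDX58 (RIG-I), IFIH1 (MDA5) and DHX58 (LGP2), their adaptor MAVS, and the effectors ISG15, IFIT1, IFIT2, IFIT3 and OAS1. Each name stood once in the table. Cells carried the label WT and received 20 µM of a peptide for 5 days. One group of 3 libraries received P-T3H2, a cell-permeating peptide that the study's title links to stabilisation of the HNF4α protein, and the other group of 3 received P-T3H2-2A, labelled as the control peptide. No untreated cells were analysed here, so every difference is between the peptides. All libraries came from 1 cell line. Whether replicates were grown separately is not in the labels, and a p-value here therefore reflects only how these libraries varied, which may be technical variation.

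RIG-I and MDA5 are cytosolic helicases that bind viral double-stranded RNA and then engage MAVS on the outer mitochondrial membrane. MAVS relays the signal through the kinases TBK1 and IKBKE to IRF3 and IRF7, which switch on interferon genes. Secreted interferon acts through its receptors and JAK-STAT signalling on genes with interferon-stimulated response elements, and raises many antiviral genes, the sensors themselves among them. Hepatocytes are a main target of hepatitis viruses, and Huh7 and its derivatives are widely used to grow hepatitis C virus.

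The response element can be read in the promoters of several of these genes, and 4 promoters are shown, those of ISG15, IFIT1, DDX58 and IFIH1. The 250 bases before each RefSeq gene start (GRCh38.p14) were searched on both strands for a pair of GAAA with any 2 bases between them (written GAAA-NN-GAAA), the repeated core of the element. RefSeq promoters were matched for 7 of the 9 genes, with 8 start sites in all because IFIT3 has 2. The core was in 5 of these 8 promoters (ISG15, IFIT1, IFIH1 and both of IFIT3), against 3.02% of 34943 promoters of the same length. A closer spacing, with 1 base between (GAAA-N-GAAA), was added after the sequences had been seen. It was in the promoters of DDX58, OAS1 and 1 start of IFIT3, against 2.69% of promoters. The core of the gamma-activated site, TTCNNNGAA, was found in the OAS1 promoter and in 6.56% of all promoters. The MAVS promoter held none of these letters. A match is a description of the letters and not a measured binding site. Matches to either spacing are in capitals, and a match on the opposite strand reads TTTC. The sequences run 5′ to 3′ on the strand of each gene. Within the 250 bases, they stop before the first base in any exon of that gene in GENCODE release 29. They are chr1:1013247-1013422 (plus strand, matches beginning 113 and 107 bases before the RefSeq start and sharing bases), chr10:89392373-89392545 (plus strand, 116 and 103 bases before), chr9:32526325-32526446 (minus strand, 203 bases before) and chr2:162318704-162318934 (minus strand, 159 and 153 bases before and sharing bases). Another IFIH1 match, 21 bases before the start, lies beyond the part shown. The ISG15 stretch lies inside the span listed for that gene, which starts at 1001138, and so is upstream of the RefSeq start only. The same holds for the OAS1 matches, in a span that starts at 112906777. It also holds for the IFIT3 start with the closer spacing, in a span that starts at 89327894.
ISG15: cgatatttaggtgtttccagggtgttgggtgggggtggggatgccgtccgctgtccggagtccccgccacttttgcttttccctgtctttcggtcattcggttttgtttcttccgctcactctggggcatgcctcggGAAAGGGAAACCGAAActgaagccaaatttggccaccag
IFIT1: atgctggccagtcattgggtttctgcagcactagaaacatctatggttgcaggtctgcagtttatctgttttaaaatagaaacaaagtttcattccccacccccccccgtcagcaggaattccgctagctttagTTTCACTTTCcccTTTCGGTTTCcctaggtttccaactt
DDX58: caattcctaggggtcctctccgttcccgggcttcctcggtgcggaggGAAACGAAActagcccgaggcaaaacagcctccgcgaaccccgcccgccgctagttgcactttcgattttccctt
IFIH1: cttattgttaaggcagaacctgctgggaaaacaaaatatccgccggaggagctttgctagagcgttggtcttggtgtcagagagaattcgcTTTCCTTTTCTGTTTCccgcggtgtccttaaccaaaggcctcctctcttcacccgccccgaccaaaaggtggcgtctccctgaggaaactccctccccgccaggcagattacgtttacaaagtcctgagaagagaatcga

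Total gene counts ranged from 17434442 to 21374732 per library. P-T3H2-2A replicate 3 lay apart from the other controls: on the first principal component, with 68.6% of the variance, it scored 27.3, against -60.3 and -58.6 for P-T3H2-2A replicates 1 and 2 and 23.8 to 34.3 for the P-T3H2 libraries. Whether the label of this library is right was not tested, and every value from all 6 libraries rests on it. Each result below is therefore given with all 6 libraries and again without P-T3H2-2A replicate 3, here called the 5-library comparison. That library was left out with its values known, so p-values of the 5-library comparison are not independent evidence. The 12 hepatocyte markers were all counted in every library, with a summed level of 35820 to 36620 CPM (counts-per-million units, scaled by library total and TMM factor) with P-T3H2-2A and 33790 to 35430 CPM with P-T3H2. Of these, 2 rose in the 5-library comparison, ALB and SERPINA1 (log2 0.42 and 0.45), and 4 fell, FGB and HNF4A among them. FGB stood at 2962, 3002 and 811 CPM against 745.5, 765.0 and 746.1 CPM. HNF4A stood at 123.4, 123.2 and 76.45 CPM against 74.50, 80.28 and 75.50 CPM. The 12 leukocyte markers summed to 137 to 656 CPM with P-T3H2-2A and 580 to 689 CPM with P-T3H2, most of it LYZ. In that comparison LYZ rose and CD14 and CD68 fell (log2 2.30, -1.26 and -2.12), while MS4A1, a B cell marker, had 0 counts. The 12 fibroblast and endothelial markers summed to 73.3 to 120 CPM and 110 to 123 CPM. There PDGFRA, PDGFRB and VWF rose and PECAM1 fell (log2 -1.72), with KDR at 0 in all libraries. None of these markers was called by edgeR with all 6 libraries, while DESeq2 called FGB and TF lower (DESeq2 adjusted p = 0.0338 and 0.0486). The part of these markers in the results below was not tested. In bulk RNA, a change in the number of cells that express a gene and a change in RNA per cell cannot be told apart.

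The adaptor was the most abundant of the 9 genes, and DHX58 and IFIT2 were near the limit of detection. Compared per length in FPKM (fragments per kilobase, scaled by library total), MAVS stood highest, at 14.4 ± 1.44 FPKM (SD over 6 libraries), followed by ISG15 at 6.48 ± 1.69 FPKM and DDX58 at 2.26 ± 0.677 FPKM. IFIT3 stood at 1.19 ± 0.179 FPKM and IFIH1 at 0.684 ± 0.138 FPKM. OAS1, at 0.238 ± 0.0674 FPKM, and IFIT1, at 0.207 ± 0.0972 FPKM, did not differ beyond their spread. IFIT2, at 0.0530 ± 0.0330 FPKM, and DHX58, at 0.0154 ± 0.0173 FPKM, closed the order with overlapping ranges. The ranges of DDX58 and IFIT3 overlapped too, although IFIT3 was below DDX58 in all 6 libraries. These levels rest on the gene length the authors used, which was 2070 bases for ISG15 and 22260 for MAVS, against 941 and 11771 bases of exon in GENCODE release 29. On the latter lengths the mean of ISG15 would be 14.2 FPKM and that of MAVS 27.3 FPKM, with the order of all 9 genes the same.

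**Figure D1:**
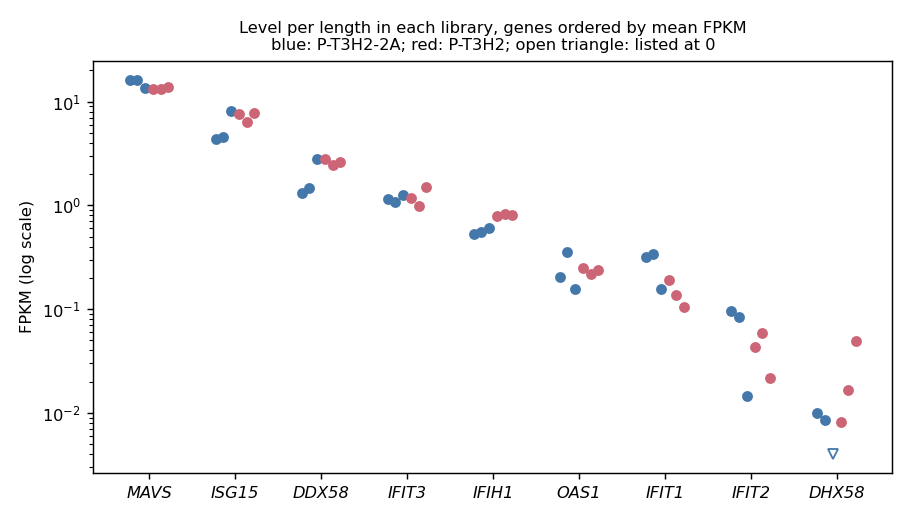
Deposited FPKM (log axis) of the 9 genes in each library, ordered by mean, with P-T3H2-2A in blue and P-T3H2 in red. MAVS lies between 13.2 and 16.3 FPKM in all libraries, and DHX58 below 0.0490 FPKM except in P-T3H2 replicate 3, which holds that value; an open triangle marks a library where it is listed at 0.

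With all 6 libraries, none of the 7 genes that passed the low-count filter differed between the peptides in edgeR at an adjusted p under 0.05, in a comparison where 0.00627% of 15946 genes were called. At an unadjusted p under 0.05 there was 1 of the 7, IFIH1, among 2875 of the 15946 genes. DESeq2 also called none of the 7, and called 0.715% of the 16355 genes it adjusted, 0.208% higher and 0.507% lower. Its unadjusted p was under 0.05 for 1 of the 7, among 3286 genes. The median log2 fold change of the 7 genes was 0.07, beside -0.0039 for all genes tested. Their directions were mixed: DDX58, IFIH1 and ISG15 had higher means with P-T3H2, IFIT1 and MAVS lower ones. In the 5-library comparison, 8 genes were tested, of which DDX58, IFIH1 and ISG15 rose and MAVS and IFIT1 fell. That comparison called 45.4% of 16281 genes, 22.6% higher and 22.8% lower, so 5 of 8 is to be read against that share. The median log2 fold change was -0.07 over the 8 genes and 0.0028 over all genes.

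**Figure D2:**
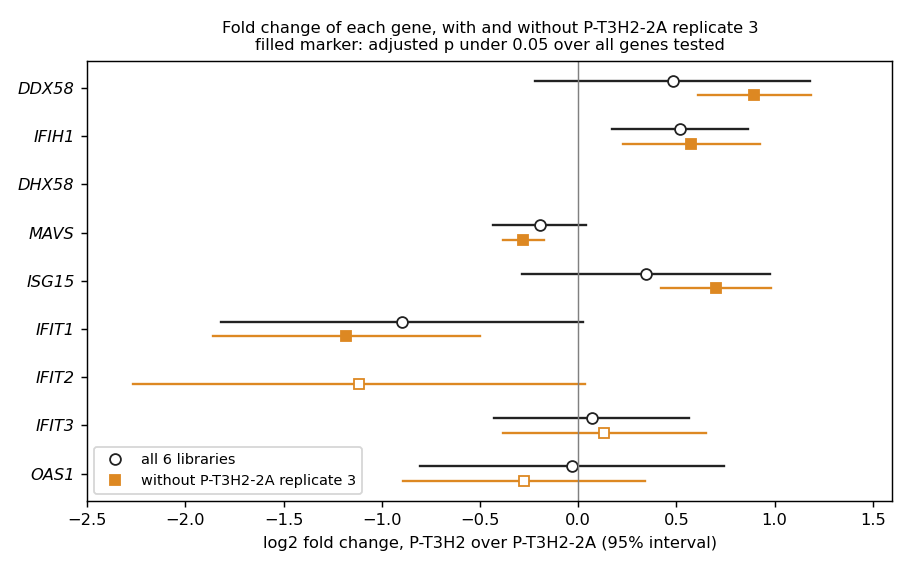
Log2 fold change of P-T3H2 over P-T3H2-2A with its 95% interval, from edgeR, with all 6 libraries (circles) and without P-T3H2-2A replicate 3 (squares). Filled markers, at an adjusted p under 0.05, appear only for DDX58, IFIH1, MAVS, ISG15 and IFIT1 in the 5-library comparison; DHX58 was not tested in either and IFIT2 not with all 6 libraries.

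DDX58 encodes RIG-I, the sensor of short double-stranded RNA with a triphosphate end (ENSG00000107201, chromosome 9, 32455705 to 32526324, minus strand, GRCh38). The control libraries, replicates 1 to 3, held 6.01, 6.68 and 12.7 CPM, and those given P-T3H2 held 12.7, 11.0 and 11.9 CPM. P-T3H2-2A replicates 1 and 2 were low and the other 4 libraries high, with P-T3H2-2A replicate 3 above every P-T3H2 library. The control mean was 8.47 ± 3.69 CPM (SD, n = 3) and the P-T3H2 mean 11.8 ± 0.832 CPM (SD, n = 3). With all 6 libraries the log2 fold change was 0.48 (SE 0.292, 95% interval -0.22 to 1.18, edgeR adjusted p = 0.339). In the 5-library comparison DDX58 rose 1.86-fold (log2 0.90, SE 0.122, adjusted p = 0.00111).

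IFIH1 encodes MDA5, the sensor of long double-stranded RNA (ENSG00000115267, chromosome 2, 162267079 to 162318703, minus strand). Its levels were 3.00, 3.12 and 3.44 CPM with P-T3H2-2A and 4.42, 4.68 and 4.61 CPM with P-T3H2. IFIH1 was the 1 gene of the 7 tested whose groups did not overlap, which held for 23.5% of the 15946 genes tested. Unlike DDX58, it was low in all P-T3H2-2A libraries, replicate 3 included. The means were 3.19 ± 0.225 CPM (SD, n = 3) and 4.57 ± 0.133 CPM (SD, n = 3), from 188 and 290 counts in all. The log2 fold change was 0.52 with all 6 libraries (SE 0.145, 95% interval 0.17 to 0.87, edgeR adjusted p = 0.275) and 0.58 in the 5-library comparison (SE 0.148, adjusted p = 0.0170). The 5-library call was lost in DESeq2 (adjusted p = 0.0633) and when P-T3H2-2A replicate 1 or 2 was also left out. Over all alternatives of the 5-library comparison, the log2 fold change of IFIH1 stayed between 0.55 and 0.60.

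DHX58 encodes LGP2, a helicase of the same family that lacks the signalling domains of RIG-I and MDA5 (ENSG00000108771, chromosome 17, 42101404 to 42112733, minus strand). Its counts were 1, 1 and 0 with the control peptide and 1, 2 and 6 with P-T3H2. Only P-T3H2 replicate 3 held more than 3 counts, and the groups overlapped. The ratio of the summed counts over library totals, 9 counts against 2, was 4.18 with a 95% exact interval of 0.865 to 39.8 that covers counting error only. A difference was not detectable at this depth.

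MAVS, the mitochondrial adaptor of both sensors, was the most abundant of the 9 genes (ENSG00000088888, chromosome 20, 3846799 to 3876123, plus strand). It stood at 364, 363 and 304 CPM with P-T3H2-2A and at 292.4, 298.5 and 307.9 CPM with P-T3H2. P-T3H2-2A replicates 1 and 2 were high and the remaining libraries lay close together, with P-T3H2-2A replicate 3 inside the P-T3H2 range. The log2 fold change with all 6 libraries was -0.20 (SE 0.0986, 95% interval -0.43 to 0.04, edgeR adjusted p = 0.288). Without P-T3H2-2A replicate 3, MAVS fell by 0.28 in log2 units (SE 0.0444, adjusted p = 0.00220), a 1.21-fold decrease that was the smallest of the 5 calls.

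ISG15 encodes a ubiquitin-like protein that is attached to other proteins after interferon (ENSG00000187608, chromosome 1, 1001138 to 1014541, plus strand). It stood at 9.01, 9.40 and 16.99 CPM with P-T3H2-2A and at 15.5, 13.3 and 16.1 CPM with P-T3H2. As with DDX58, P-T3H2-2A replicates 1 and 2 were low and replicate 3 was the highest of all 6 libraries. The control mean was 11.8 ± 4.50 CPM (SD, n = 3). With all 6 libraries the log2 fold change was 0.34 (SE 0.263, 95% interval -0.29 to 0.98, edgeR adjusted p = 0.426), and in the 5-library comparison ISG15 rose 1.63-fold (log2 0.70, SE 0.118, adjusted p = 0.00286). Over 6 libraries of log2 CPM, Pearson's r between ISG15 and DDX58 was 0.98, a description of profiles that share the same split of libraries.

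IFIT1, which binds viral RNA with incomplete caps, had its higher levels where ISG15 had its lower ones (ENSG00000185745, chromosome 10, 89392546 to 89406486, plus strand). It stood at 2.02, 2.13 and 0.989 CPM with P-T3H2-2A and at 1.21, 0.868 and 0.659 CPM with P-T3H2, from 35, 43 and 21 counts and 26, 18 and 14 counts. P-T3H2-2A replicates 1 and 2 were the highest, and replicate 3 lay inside the P-T3H2 range. The log2 fold change was -0.90 with all 6 libraries (SE 0.384, 95% interval -1.82 to 0.02, edgeR adjusted p = 0.275). Without P-T3H2-2A replicate 3, IFIT1 fell 2.27-fold (log2 -1.18, SE 0.287, adjusted p = 0.0137). That call was lost when P-T3H2-2A replicate 2 was also left out (adjusted p = 0.0674).

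IFIT2, a relative of IFIT1 in the same gene cluster, had 11, 11 and 2 counts with P-T3H2-2A and 6, 8 and 3 counts with P-T3H2 (ENSG00000119922, chromosome 10, 89301955 to 89309276, plus strand). It was too low to be tested with all 6 libraries, and the ratio of its summed counts over library totals was 0.658 with a 95% exact interval of 0.332 to 1.28. Without P-T3H2-2A replicate 3 it was tested, with a log2 fold change of -1.12 (SE of 0.487, adjusted p = 0.103 in edgeR). Exons of IFIT2 overlap those of LIPA on the opposite strand, a gene with 1567 to 1962 counts per library. The strand setting of the counting is not given in the sources used here, so the few reads of IFIT2 cannot be assigned with certainty. LIPA also overlaps IFIT1 and IFIT3 on the opposite strand, but not exon with exon. Whether reads of LIPA entered the counts of IFIT1 and IFIT3 was not tested. IFIT3, the binding partner that stabilises IFIT1, stood at 3.06, 2.82 and 3.34 CPM against 3.118, 2.604 and 3.954 CPM, with full overlap (ENSG00000119917, chromosome 10, 89327894 to 89340971, plus strand). Its log2 fold change was 0.07 (95% interval -0.43 to 0.57, edgeR adjusted p = 0.842) and 0.13 in the 5-library comparison (95% interval -0.38 to 0.65, adjusted p = 0.649). IFIT5, singled out after its values were seen as the other family member on the pathway lists, stood at 4.62, 4.90 and 2.73 CPM against 2.09, 1.69 and 1.41 CPM. All its P-T3H2 libraries lay below all controls, as for 11.6% of the 15946 genes tested. Without P-T3H2-2A replicate 3, IFIT5 fell by 1.46 in log2 units (edgeR adjusted p = 0.00122), against -1.23 with all 6 libraries (adjusted p = 0.275).

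OAS1 makes the oligoadenylates that activate RNase L (ENSG00000089127, chromosome 12, 112906777 to 112933222, plus strand). It stood at 1.85, 3.21 and 1.41 CPM with P-T3H2-2A and at 2.23, 1.98 and 2.12 CPM with P-T3H2. The P-T3H2 libraries lay within the range of the P-T3H2-2A libraries, of which replicate 2 was the highest. The log2 fold change was -0.03 with all 6 libraries (95% interval -0.81 to 0.74, edgeR adjusted p = 0.954) and -0.28 in the 5-library comparison (95% interval -0.89 to 0.34, adjusted p = 0.423). Its direction turned to 0.37 with all the libraries but P-T3H2-2A replicate 2, and to 0.18 when both P-T3H2-2A replicates 2 and 3 were left out.

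**Figure D3:**
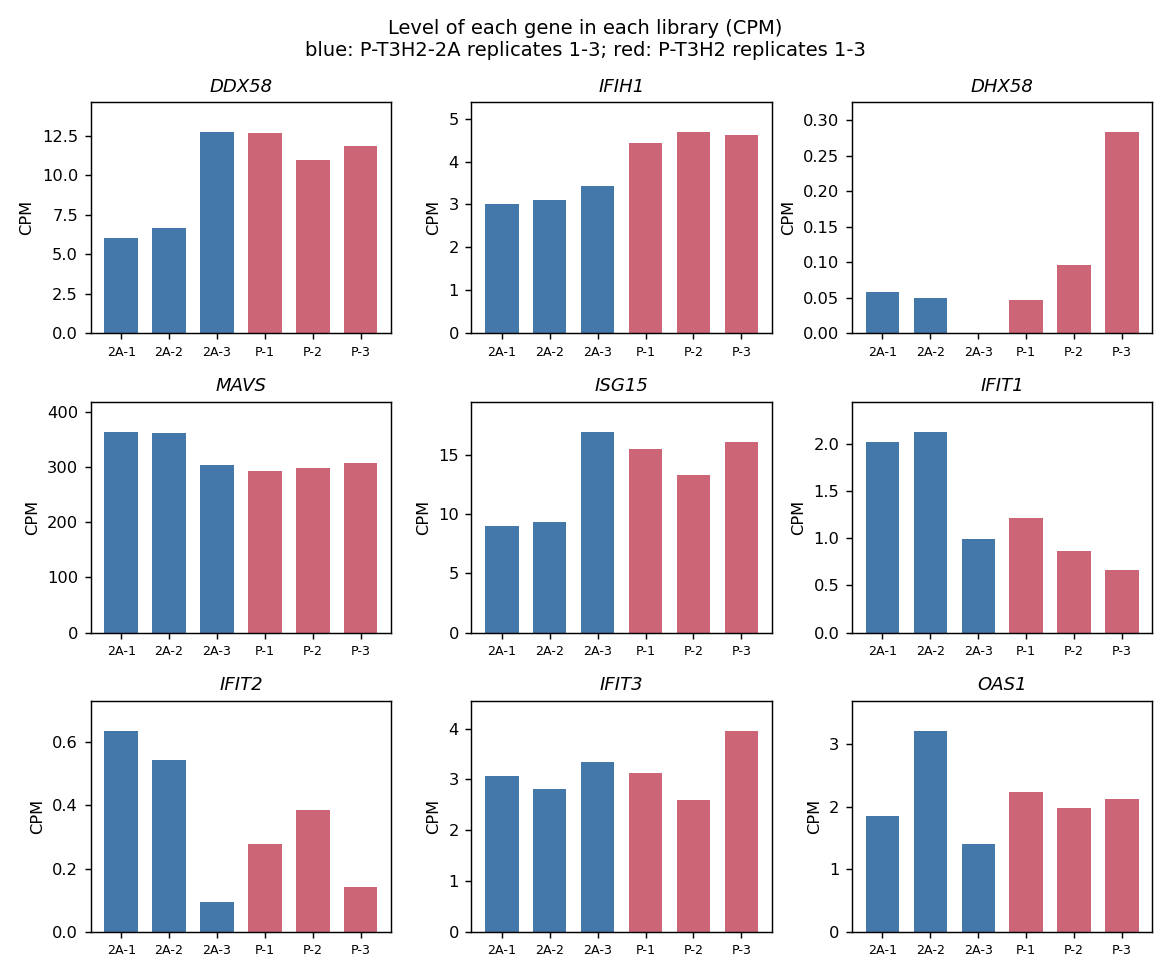
Level of each of the 9 genes in each library, in CPM on separate linear axes from 0, with P-T3H2-2A replicates 1 to 3 (2A-1 to 2A-3) in blue and P-T3H2 replicates 1 to 3 (P-1 to P-3) in red. P-T3H2-2A replicate 3 stands with the P-T3H2 libraries for DDX58, MAVS, ISG15 and IFIT1 and with the other controls for IFIH1.

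Genes with profiles most like that of DDX58 over the 6 libraries were C16orf87, SOX4, CFAP44, LMBRD1 and NOMO2, each with Pearson's r of 0.998 or more on log2 CPM. SOX4, a developmental transcription factor, stood at 184.9, 196.9 and 311.8 CPM with P-T3H2-2A and 320.0, 288.2 and 305.9 CPM with P-T3H2. Such likeness was common, since 1591 of 11388 genes compared had an r above 0.95 with DDX58. The mean profile of ISG15, IFIT1, IFIT3 and OAS1 lay between -0.18 and 0.19 on the log2 scale around its mean, but it averages genes with opposite profiles (r = -0.87 between ISG15 and IFIT1) and describes none of them singly. DLX6, TMEM19, CPN1, CEBPZ and AFAP1 were most like it (r between 0.97 and 0.98), and 12 genes had an r above 0.95.

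Upstream and downstream of the sensors, none of 9 interferon genes looked up was counted. Changes of the pathway genes below are log2 fold changes with edgeR adjusted p-values. IFNB1, IFNA1, IFNA2, IFNE, IFNK, IFNG, IFNL1, IFNL2 and IFNL3 had 0 counts in all 6 libraries, which allows up to 3 counts or 0.140 to 0.172 CPM per library. Among 33 genes of RNA sensing and signalling, 28 were tested with all 6 libraries and none was called by edgeR, with a median log2 fold change of -0.05. In the 5-library comparison 5 of 29 rose and 6 fell (median -0.08), shares to be set beside 22.6% and 22.8% of all genes. The kinase gene TBK1 stood at 49.0, 51.0 and 52.9 CPM against 51.1, 46.9 and 50.9 CPM, and IRF7, the interferon-induced relay factor, had 4 counts in all with the control peptide and 8 with P-T3H2. Both were singled out after their values were seen.

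EIF2AK2, the RNA-activated kinase PKR, stood at 41.7, 43.6 and 32.0 CPM against 30.9, 30.9 and 28.5 CPM. All P-T3H2 libraries were below all controls, as for 11.6% of the 15946 genes tested. EIF2AK2 fell by 0.50 in the 5-library comparison (edgeR adjusted p = 0.00147), against -0.38 with all 6 libraries (adjusted p = 0.275). ADAR, which edits double-stranded RNA, stood at 443.0, 443.6 and 341.5 CPM against 326, 368 and 346 CPM and fell by 0.36 in the 5-library comparison (adjusted p = 0.00268, and -0.24 with all 6 libraries). STING1, the adaptor of DNA sensing, stood at 1.79, 1.68 and 0.753 CPM against 0.465, 0.820 and 0.612 CPM and fell by 1.45 (adjusted p = 0.00663, and -1.14 with all 6 libraries). IKBKB, a kinase of the NF-kB branch, was at 24.8, 23.7 and 36.7 CPM against 35.4, 38.7 and 37.4 CPM and rose by 0.61 (adjusted p = 0.000794, and 0.39 with all 6 libraries). For ADAR, STING1 and IKBKB, the value of P-T3H2-2A replicate 3 was inside the P-T3H2 range.

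Of 19 interferon receptor and JAK-STAT genes, all were tested and none was called with all 6 libraries (median log2 fold change 0.11). In the 5-library comparison 7 rose and 1 fell (median 0.11), beside 22.6% and 22.8% of all genes. JAK2, a kinase of the interferon gamma receptor, stood at 5.83, 6.33 and 12.8 CPM against 15.6, 14.5 and 14.6 CPM and rose by 1.29 in the 5-library comparison (edgeR adjusted p = 0.000150), with 0.84 with all 6 libraries (adjusted p = 0.275). IFNAR1, a chain of the type I interferon receptor, and PIAS1, an inhibitor of JAK-STAT signalling, both rose by 0.39 in that comparison (adjusted p = 0.00578 and 0.00131), against 0.22 and 0.23 with all 6 libraries. P-T3H2-2A replicate 3 lay above every P-T3H2 library for both, at 62.8 CPM for IFNAR1 and 73.4 CPM for PIAS1. IFNLR1, the specific chain of the interferon lambda receptor, stood at 20.0, 17.9 and 11.7 CPM against 11.7, 12.8 and 11.1 CPM and fell by 0.68 in the 5-library comparison (adjusted p = 0.00211, and -0.48 with all 6 libraries).

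Of 53 other interferon-stimulated genes, 17 had a mean below 1 CPM, RSAD2, OASL, BST2 and IFI44 among them. None of the 36 tested with all 6 libraries was called (median log2 fold change 0.03), and in the 5-library comparison 10 of 38 rose and 9 fell (median 0.03), beside 22.6% and 22.8% of all genes. GBP2, an interferon-induced GTPase, stood at 2.54, 2.18 and 12.2 CPM against 12.84, 11.96 and 11.20 CPM and rose by 2.35 in the 5-library comparison (edgeR adjusted p = 5.43e-05), with 1.08 with all 6 libraries (adjusted p = 0.328). TMEM140 rose by 1.28 (adjusted p = 0.000160), with 0.71 with all 6 libraries. TRIM14, an adaptor that joins MAVS, stood at 33.0, 38.1 and 12.2 CPM against 12.01, 16.01 and 13.41 CPM and fell by 1.37 (adjusted p = 0.000270, and -1.01 with all 6 libraries). The peptidase gene LAP3 fell by 0.53 (adjusted p = 0.000347, and -0.37 with all 6 libraries). For GBP2, TMEM140, TRIM14 and LAP3, P-T3H2-2A replicate 3 was inside the P-T3H2 range and outside that of the other controls.

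**Figure D4:**
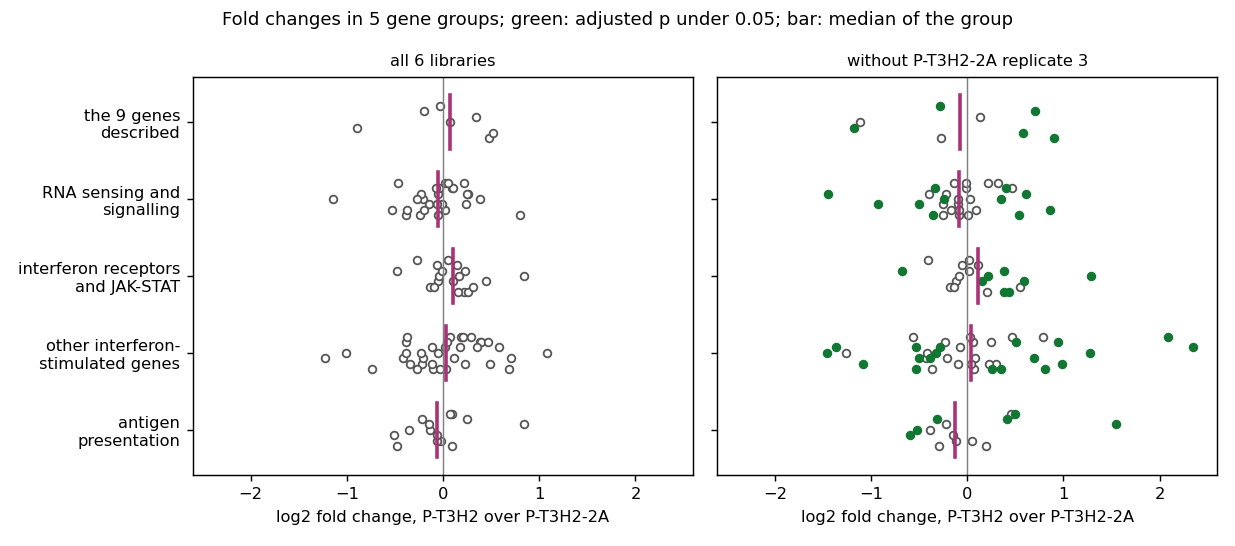
Log2 fold change of P-T3H2 over P-T3H2-2A for each gene tested in 5 groups, with all 6 libraries (left) and without P-T3H2-2A replicate 3 (right). No gene is called on the left; on the right called genes (green) lie on both sides of 0 in every group, and the medians (bars) lie between -0.13 and 0.11.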

How the data were processed

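Huh7 libraries were grouped by their titles. The authors deposited a table of whole-number gene counts and FPKM values per library, per the file headers. Per the submitters' processing notes, the tools were HISAT2 2.0.4 and StringTie 1.3.3b, with edgeR, and the build named is a mouse one, whereas the table lists human genes. Of these, 50111 IDs are in GENCODE release 29 (GRCh38), 47499 with identical coordinates. The deposited FPKM equal counts divided by library total and 1 length per gene (within 0.001 in each of 13364 genes checked, those of 20 or more counts). Every pair of libraries differed by more than sampling noise, with a chi-square per gene of 11.6 or more. Counting intervals and floors of 3 counts cover counting error only.

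The test on counts was the quasi-likelihood test of edgeR 4.0.16 in R 4.3.3, after TMM scaling and filterByExpr (minimum count 10, total 15). The fit was robust and had no covariate, and p-values were adjusted over all genes by Benjamini-Hochberg at 0.05. The standard error is the log2 fold change divided by the square root of F. The procedure was tested on simulated data. Alternatives were DESeq2 1.42.0, limma-voom (limma 3.58.1), DESeq2 size factors, library totals, no low-count filter, the replicate number as a block, and leaving out each library. Genes named from each of 5 pathway lists were the 4 of smallest p in the 5-library comparison with a mean of at least 1 CPM. For likeness they were the 5 of highest r on log2 CPM (prior count 2) with a mean of at least 5 CPM. Some genes are not reported here. Genes, lists and rules were chosen with earlier results of these data known. Promoter sequences are from RefSeq.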

Additional observations from a re-analysis of the deposited data

How the results depend on the processing

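With all 6 libraries, edgeR called 1 gene, against 117 by DESeq2, 3 by limma-voom, 4 with no low-count filter and 0 with the replicate block, and between 0 and 7390 when each library was left out. The highest of these was without P-T3H2-2A replicate 3. None of the 9 genes was called in any of these settings except without P-T3H2-2A replicate 3, where 5 were (range 0 to 5). In the 5-library comparison, where 7390 genes and 5 of the 9 were called, the replicate block gave 5751 genes and 3 of the 9, and leaving out a further library gave 5595 to 7135 genes and 3 to 5 of the 9. Deviations of same-numbered libraries from their group means had correlations of -0.05, 0.16 and 0.11. The control mean includes P-T3H2-2A replicate 3, which lay apart, so these values cannot show whether libraries were paired. The numbers were not taken as pairs, and the block is given as an alternative only. DDX58, MAVS and ISG15 kept their calls in all 11 alternatives of the 5-library comparison, and IFIH1 and IFIT1 lost theirs in 4 and 2, the replicate block included (adjusted p = 0.0715 and 0.0575).

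Of 172 values of single genes under alternatives, 153 kept direction and call, 5 gained a call, 6 lost one and 8 changed sign, these last all in IFIT3 or OAS1. Leaving out each library, the log2 fold change of IFIT3 ranged from -0.1032 to 0.2025 and that of OAS1 from -0.2755 to 0.3713, and in the 5-library comparison from -0.0321 to 0.2683 and from -0.6101 to 0.1837. IFIT3 turned to -0.0429 with the replicate block in the 5-library comparison, and OAS1 with all 6 libraries to 0.0513 in limma-voom and 0.0343 with the replicate block. The cause was not tested. Depth limited DHX58 and IFIT2 most. Without the low-count filter their adjusted p with all 6 libraries was 0.455 and 0.601.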

Other observations

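Genes of antigen presentation that respond to interferon are the last group in the plot of log2 fold changes by gene group. None of 14 tested was called by edgeR with all 6 libraries (median log2 fold change -0.06), and in the 5-library comparison 3 rose and 3 fell (median -0.13), beside 22.6% and 22.8% of all genes. HLA-E, a ligand of natural killer cell receptors, stood at 25.7, 25.9 and 35.1 CPM with P-T3H2-2A and 33.5, 33.4 and 35.8 CPM with P-T3H2 and rose by 0.41 in log2 units in the 5-library comparison (adjusted p = 0.00366, and 0.25 with all 6 libraries). TAP1, the peptide transporter subunit, rose by 1.55, from 1.10 and 1.14 CPM in the first pair of controls to 3.29 ± 0.604 CPM (SD, n = 3), beside 3.20 CPM in the remaining control (adjusted p = 0.00206, and 0.85 with all 6 libraries). PSME2, a proteasome activator subunit, fell by 0.52 (adjusted p = 0.00901, and -0.35 with all 6 libraries).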
